A study of Rattus norvegicus with 6 samples.

Results

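The miRNAs described here are 31 of the 677 rat miRNAs on a 1-colour Agilent array. They were chosen by name because they are known to be enriched in organs other than the liver and the blood. They comprise 6 miRNAs of muscle and heart (rno-miR-1, rno-miR-133a, rno-miR-133b, rno-miR-206, rno-miR-208 and rno-miR-499) and 10 of brain (rno-miR-9, rno-miR-124, rno-miR-128, rno-miR-129, rno-miR-132, rno-miR-137, rno-miR-138, rno-miR-153, rno-miR-212 and rno-miR-219-5p). A further 4 are known from pancreas (rno-miR-216a, rno-miR-216b, rno-miR-217 and rno-miR-375; miR-216b is on the array as miR-216b-5p). The remaining 11 are known from epithelium, kidney and skin (rno-miR-200a, rno-miR-200b, rno-miR-200c, rno-miR-141, rno-miR-429, rno-miR-203, rno-miR-205, rno-miR-204, rno-miR-196a, rno-miR-183 and rno-miR-182). Plasma was collected from male Wistar rats 24 h after an intraperitoneal injection, and RNA of each animal went on 1 array. The vehicle group (n = 3) was given 0.9% saline and the thioacetamide group (n = 3) was given the liver toxicant thioacetamide at 100 mg/kg in the same saline. Whole plasma holds RNA released by every organ and by blood cells, so a plasma level cannot tell more releasing cells from more RNA per cell.

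A miRNA is a short RNA that guides an Argonaute protein to messenger RNAs that pair with its seed, bases 2 to 8. Cells that die or secrete vesicles release miRNAs into plasma, where protein or vesicles shield them from nucleases. Because some miRNAs are made mostly in 1 organ, their plasma levels are used as signs of damage to that organ: miR-1, miR-133 and miR-208 for muscle and heart, miR-124 and miR-9 for neurons, miR-216 and miR-217 for the exocrine pancreas, and miR-375 for islet cells. The miR-200 family and miR-203 and miR-205 mark epithelium, where the miR-200 family represses the Zeb transcription factors.

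Mature sequences of 27 of the 31 miRNAs were matched in RefSeq (GRCr8) by pairing with the longest array probe and by miRNA number. These carry 24 seeds. miR-124, miR-200a, miR-200b and miR-429 were not matched. The sequences that follow belong to miR-204, which was detected, and its near-identical relative miR-211, to the miR-200 family members miR-200c and miR-141, to the near-identical muscle pair miR-133a and miR-133b, to miR-128, the brain miRNA closest to detection, and to miR-208 with its partner arm miR-208*, of which the partner alone was detected. The seed is in capitals, and each is written 5′ to 3′.
miR-204: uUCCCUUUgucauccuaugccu
miR-211: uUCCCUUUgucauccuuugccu
miR-200c: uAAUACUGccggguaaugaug
miR-141: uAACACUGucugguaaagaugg
miR-133a: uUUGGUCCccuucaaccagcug
miR-133b: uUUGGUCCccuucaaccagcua
miR-128: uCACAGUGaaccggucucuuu
miR-208: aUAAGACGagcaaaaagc
miR-208*: gAGCUUUUggcccggguuauac

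Counted from 1 at the 5′ end, miR-204 and miR-211 differ by A17U alone over 22 bases, and miR-133a and miR-133b by G22A alone. Probes for such pairs can share signal. The seed UUGGUCC is common to miR-133a and miR-133b, GGAAUGU to miR-1 and miR-206, and AACAGUC to miR-132 and miR-212. miR-200c and miR-141 differ at 4 of 21 bases, and their seeds are AAUACUG and AACACUG.

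Detection rests on the scanner software's spot call, well above background. A probe with this call on over 50% of its spots counted as detected, and 1 such probe sufficed for its miRNA. By this rule 4 of the 31 miRNAs (12.9%) were detected on at least 1 array, beside 99 of all 677 (14.6%). All 4 were epithelial: miR-200a, miR-200b, miR-429 and miR-204, of 11 in that group. None of the 6 muscle and heart, 10 brain or 4 pancreas miRNAs was detected on any array. The software's more lenient gene call added miR-133b and miR-128, for 6 of 31 (19.4%) beside 149 of 677 (22.0%), and 25 miRNAs had neither call. The number detected was 0, 1 and 0 on vehicle 1 to 3 and 0, 2 and 3 on thioacetamide 1 to 3. Over all arrays, 57 of 3589 spots of these miRNAs (1.59%) were well above background, beside 4097 of 79114 spots of all miRNAs (5.18%), and 56 of the 57 belonged to the 4 epithelial miRNAs. The other spot was 1 of miR-128 on vehicle 1.

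The arrays differed in what they could detect, and this followed their place on the slide. Vehicle 2, vehicle 3 and thioacetamide 1 lay in slide columns 1 and 2, and vehicle 1, thioacetamide 2 and thioacetamide 3 in columns 3 and 4, so both sides held both groups. The lowest mean signal of a detected probe was 19.6, 136 and 153 on vehicle 1 to 3 and 445, 42.1 and 46.4 on thioacetamide 1 to 3. All signals here are the scanner software's background-subtracted processed signal on a linear scale, which falls below 0 where a spot is dimmer than its estimated background. The number of miRNAs detected ran from 16 on vehicle 3 to 83 on thioacetamide 3. As markers of blood cells, miR-451, miR-16 and miR-92a were detected on all 6 arrays, miR-150 on 4 and miR-223 on 3. The liver marker miR-122 was detected on 1 vehicle array and all 3 thioacetamide arrays.

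**Figure D1:**
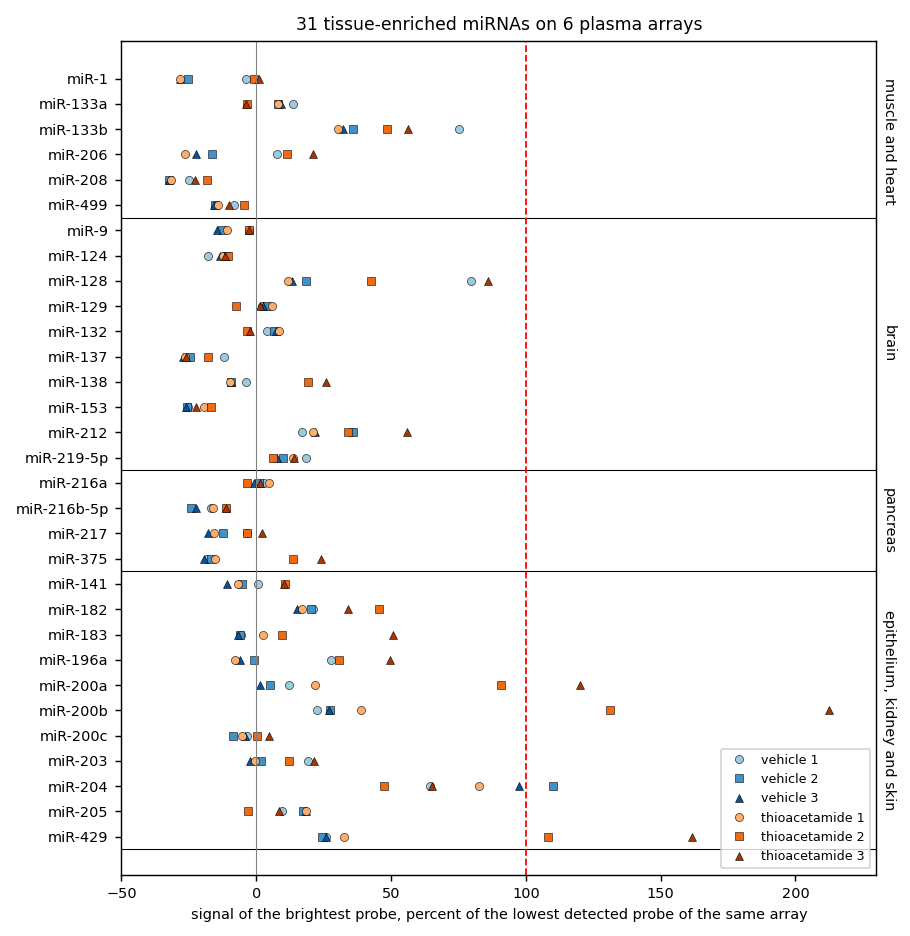
Signal of the brightest probe of each of the 31 miRNAs on each of 6 arrays, as a percent of the lowest detected probe of the same array (horizontal axis; dashed red line at 100), with 1 symbol per array and the miRNAs grouped by organ. The miRNAs past the line are miR-200a on 1 array, miR-200b and miR-429 on 2 each, and miR-204 on 1.

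No muscle or heart miRNA had a spot well above background, of 706 spots. The closest was miR-133b. The brightest miR-133b probe reached 75.3% of the lowest detected probe on vehicle 1, and on the other 5 arrays it lay between 30.4% and 56.4%. Its summed signal was 20.2, 89.8 and 91.8 on vehicle 1 to 3 and 267, 24.9 and 34.1 on thioacetamide 1 to 3. The groups overlapped, and the 3 arrays of columns 1 and 2 had the higher signals. The brightest probes of the other 5, miR-1, miR-133a, miR-206, miR-208 (encoded in a cardiac myosin gene) and miR-499 (in another myosin gene), lay between -32.5% (miR-208, vehicle 2) and 21.2% (miR-206, thioacetamide 3).

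Of the brain miRNAs, miR-128 came closest to detection. It is a neuronal miRNA that also occurs in other tissues. Its brightest probe was at 15.6 on vehicle 1 and 40.0 on thioacetamide 3, which is 79.8% and 86.1% of the lowest detected probe there. On these 2 arrays the software's gene call counted it as present. Its summed signal was 21.8, 22.9 and 13.8 on vehicle 1 to 3 and 32.3, 21.8 and 53.3 on thioacetamide 1 to 3, with the groups overlapping. The other 9 lay between -27.2% (miR-137, vehicle 3) and 55.8% (miR-212, thioacetamide 3) of the lowest detected probe. Among them, miR-124, the main neuronal miRNA, was below 0 on all 6 arrays, from -17.8% to -10.5%, as was miR-9, from -14.7% to -2.68%.

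The 4 pancreas miRNAs had 0 of 457 spots well above background and no gene call on any array. Their brightest probes lay between -24.1% (miR-216b-5p, vehicle 2) and 24.0% (miR-375, thioacetamide 3) of the lowest detected probe. The brightest miR-375 probe was below 0 on the 3 vehicle arrays and thioacetamide 1, and above 0 on thioacetamide 2 and 3 (13.8% and 24.0%).

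Within the miR-200 family the detected and undetected members fell by genomic cluster. The probes of miR-429, miR-200a and miR-200b lie within 1835 bases of each other at chr5:172897242-172899076 (rn4, from the scanner files), and all 3 were detected. The probes of miR-141 and miR-200c lie within 442 bases at chr4:160840967-160841408, and neither was detected. The signal of the brightest miR-200c probe stayed between -8.66% and 4.77% of the lowest detected probe, and that of miR-141 between -10.9% and 10.6%. The partner arms miR-200a*, miR-200b*, miR-200c* and miR-141* were detected on 0 arrays by either call.

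The summed signal of miR-200b was 6.49, 52.5 and 52.8 on vehicle 1 to 3 and 237, 65.0 and 116 on thioacetamide 1 to 3. All 3 thioacetamide arrays were above all 3 vehicle arrays before scaling, though thioacetamide 2 only by a little. The brighter of its probes had 9 of 9 spots well above background on thioacetamide 2 and 9 of 9 on thioacetamide 3, and none on the other 4 arrays. On thioacetamide 1 that probe had a mean signal of 173 ± 26.0 (SD, n = 10 spots), above its 98.5 ± 7.36 (SD, n = 9 spots) on thioacetamide 3, but the lowest detected probe was at 445 there.

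miR-200a, of the same cluster, had summed signals of 3.74, 5.13 and 2.90 on vehicle 1 to 3 and 142, 51.1 and 73.2 on thioacetamide 1 to 3. The groups were far apart: the lowest thioacetamide array stood well above every vehicle array. Its brighter probe had 9 of 10 spots well above background on thioacetamide 3, which made it detected there, and 1 of 9 on thioacetamide 2. No spot was well above background on the remaining arrays, though 9 of 10 on thioacetamide 1 passed the software's weaker call, positive and significant.

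miR-429, the third member of the cluster, had summed signals of 9.66, 64.5 and 76.0 on vehicle 1 to 3 and 262, 69.8 and 110 on thioacetamide 1 to 3. Here the groups overlapped, since vehicle 3 was above thioacetamide 2. The brighter of its probes had 7 of 10 spots well above background on thioacetamide 2 and 10 of 10 on thioacetamide 3. Its other probe had none.

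miR-204, a miRNA of kidney tubules, retina and choroid plexus, behaved otherwise. Its summed signal was 21.0, 241 and 255 on vehicle 1 to 3 and 621, 28.4 and 49.1 on thioacetamide 1 to 3. The 3 arrays of slide columns 1 and 2 were high and the 3 of columns 3 and 4 were low, whatever the treatment. It was detected on vehicle 2 alone, with 7 of 9 spots of its brighter probe well above background, while vehicle 3 had 4 of 10. The software's gene call held on all arrays but thioacetamide 2. miR-211, the relative that differs by A17U, showed the same order, with 43.7, 466 and 495 on vehicle 1 to 3 and 1158, 73.9 and 101 on thioacetamide 1 to 3, and was detected on vehicle 2, vehicle 3 and thioacetamide 1. The partner arm miR-204* was detected on 0 arrays.

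**Figure D2:**
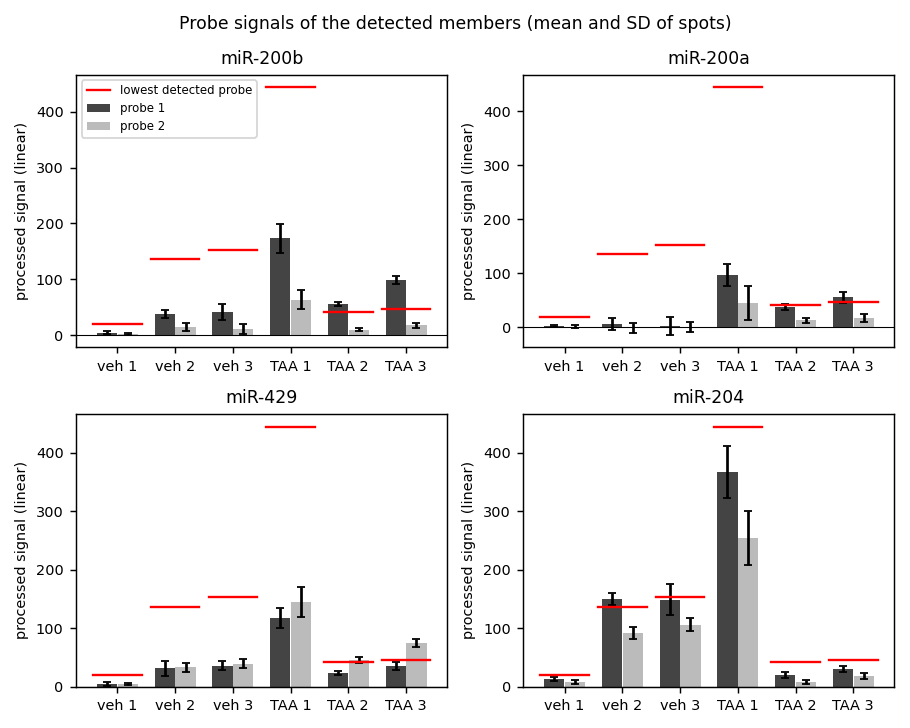
Mean processed signal (vertical axis, linear) of both probes of miR-200b, miR-200a, miR-429 and miR-204 on the vehicle (veh) and thioacetamide (TAA) arrays. Bars are means over 8 to 10 spots, error bars are the SD of the spots, and red lines mark the lowest detected probe of each array. The brighter probes of miR-200b and miR-429 pass it on thioacetamide 2 and 3, that of miR-200a on thioacetamide 3, and that of miR-204 on vehicle 2.

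The remaining 7 epithelial miRNAs were not detected by either call. These are miR-200c and miR-141 (above), the skin miRNAs miR-203 and miR-205, miR-196a, which lies in the Hox gene clusters, and miR-183 and miR-182, which are made from 1 cluster with miR-96 in sensory and other epithelia. Their brightest probes lay between -10.9% (miR-141, vehicle 3) and 50.8% (miR-183, thioacetamide 3) of the lowest detected probe. miR-96 was detected on 0 arrays.

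Treatment groups were compared on scaled signals. The divisor of each array was the 75th percentile of the 12 probes that every array detected, values under a floor of 46.1 were raised to it, and limma was fitted to log2 values of the 99 miRNAs detected on at least 1 array. Of the 31 miRNAs, 27 were not among the 99; the 4 that were had passed through the arrays where they were bright. miR-200a was the only one to pass the adjusted p threshold of 0.05, in the direction of thioacetamide. Among the 99, 14 passed as higher (14.1%) and 5 as lower (5.05%) after thioacetamide. At an unadjusted p under 0.05, 27 passed (27.3%), of which 1 was miR-200a.

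The scaled signal of miR-200a was 4.00, 6.61 and 4.64 on vehicle 1 to 3 and 62.5, 65.9 and 58.6 on thioacetamide 1 to 3. All 3 vehicle arrays were below the floor and all 3 thioacetamide arrays above it. The log2 difference was 0.43 ± 0.10 (SE, limma, adjusted p = 0.0436). Its size is set by the floor: a floor 0.25 times as high gave 2.43 (limma, adjusted p = 0.0083) and one 4 times as high gave 0. The SE and p depend on the floor too. All 3 vehicle values were the floor itself (SD 0), so they carry no spread between vehicle animals. The call held in 7 of 22 alternative settings and was lost without any 1 of the arrays (adjusted p = 0.115 to 1.00; without thioacetamide 3 it was detected nowhere and not fitted), and with normexp background correction the difference turned to -0.16. Its mean log2 value on the thioacetamide arrays, 5.96, was below the mean log2 detection limit of the vehicle arrays, 6.59, so no fold is given. That limit is a mean over unlike arrays. Before scaling, the lowest detected probe was at 19.6 on vehicle 1, against 136 and 153 on vehicle 2 and 3. The brighter miR-200a probe was at 2.40 on vehicle 1.

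miR-200b, at scaled signals of 6.93, 67.6 and 84.4 on vehicle 1 to 3 and 104, 83.9 and 92.8 on thioacetamide 1 to 3, did not pass. Vehicle 1 was far below the other 5 arrays, and vehicle 3 slightly exceeded thioacetamide 2. The log2 difference was 0.54 ± 0.26 (SE; limma, adjusted p = 0.234). It turned to -0.063 without thioacetamide 1 and to -0.15 with normexp.

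miR-429 did not pass either, with scaled signals of 10.3, 83.1 and 121 on vehicle 1 to 3 and 115, 90.0 and 88.2 on thioacetamide 1 to 3. Vehicle 3 was the highest of the 6 and vehicle 1 the lowest. The log2 difference was 0.33 ± 0.40 (SE; limma, adjusted p = 0.612), and it turned negative without vehicle 1 (-0.048), without thioacetamide 1 (-0.32) and with normexp (-0.17).

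For miR-204 the scaled signals were 22.5, 311 and 408 on vehicle 1 to 3 and 273, 36.6 and 39.3 on thioacetamide 1 to 3. The groups overlapped. The log2 difference was -1.11 ± 1.19 (SE; limma, adjusted p = 0.572). Within slide columns 1 and 2 alone the difference was -0.38, and in columns 3 and 4, where all 3 arrays were under the floor, it was 0.

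Within the slide sides, the difference of miR-200a was 0.44 in columns 1 and 2 and 0.43 in columns 3 and 4. That of miR-200b was 0.46 and 0.94, and that of miR-429 was 0.20 and 0.95. With the slide side as a block, the adjusted p of limma was 0.0692 for miR-200a and 0.0808 for miR-200b, and no member passed. The replicate number as a block also left none (miR-200a, adjusted p = 0.211). The differences of miR-200a, miR-200b and miR-429 were positive on both sides, with 1 or 2 arrays per group and side. The median of the 99 fitted miRNAs was 0 in columns 1 and 2 and 0.92 in columns 3 and 4. Most fitted miRNAs were thus positive in columns 3 and 4. There miR-200b and miR-429 lay near that median and miR-200a below it. Of the 99 miRNAs, 22 had all thioacetamide arrays above all vehicle arrays (22.2%), miR-200a among them and no other of the 31, and 7 had all below (7.07%), none of the 31. The median log2 difference of all 99 was 0.36, and that of the 4 epithelial miRNAs 0.38. With no filter, 2 of 677 miRNAs passed (0.295%) and none of the 31.

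By detection alone, miR-200b and miR-429 were detected on at least 2 thioacetamide arrays and no vehicle array, a pattern of 17 of the 677 miRNAs (2.51%). miR-204 was detected on at least 1 vehicle array and no thioacetamide array, as were 12 of 677 (1.77%). Both counts of members, 2 and 1 of 31, are too small to set against these shares.

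Signals under the detection limit were not random from array to array. Correlations between arrays were taken over 62 member probes with no spot well above background. The correlation was 0.98 for vehicle 2 with vehicle 3, and 0.97 and 0.98 for thioacetamide 1 with vehicle 2 and 3. For thioacetamide 2 with thioacetamide 3 it was 0.93. Across the slide sides it was between 0.61 and 0.81. Vehicle 1 correlated with thioacetamide 2 and 3 of its own side at 0.77 and 0.76, no more than with vehicle 2 and 3 of the other side (0.81 and 0.80). The points share probes and base composition, so these values are a description. Signals moved with the number of G in the probe: the correlation was 0.69, 0.71 and 0.71 on vehicle 2, vehicle 3 and thioacetamide 1, and 0.44, 0.20 and 0.18 on vehicle 1, thioacetamide 2 and thioacetamide 3. Of the 33 probes with 0 to 3 G, 28 were below 0 on all 3 arrays of columns 1 and 2, and all 5 with 7 or more were above 0 there.

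These array probes, written 5′ to 3′ with G in capitals, show the range; the first pair are G-rich and the last pair G-poor.
miR-204 probe: aGGcataGGatGacaaaGGG
miR-133b probe: taGctGGttGaaGGGGacc
miR-1 probe: atacacacttctttacattcc
miR-208 probe: GctttttGctcGtctt

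The miR-204 and miR-133b probes have 8 G each. On vehicle 3 the miR-204 probe was at 149 and the miR-133b probe at 49.6. A miR-133a probe that also has 8 G was at only 7.53 on vehicle 3. The miR-1 probe has no G and was at -43.4 on that array, and the miR-208 probe has 3 and was at -54.0. The part of base composition in the miR-204 signal was not tested.

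**Figure D3:**
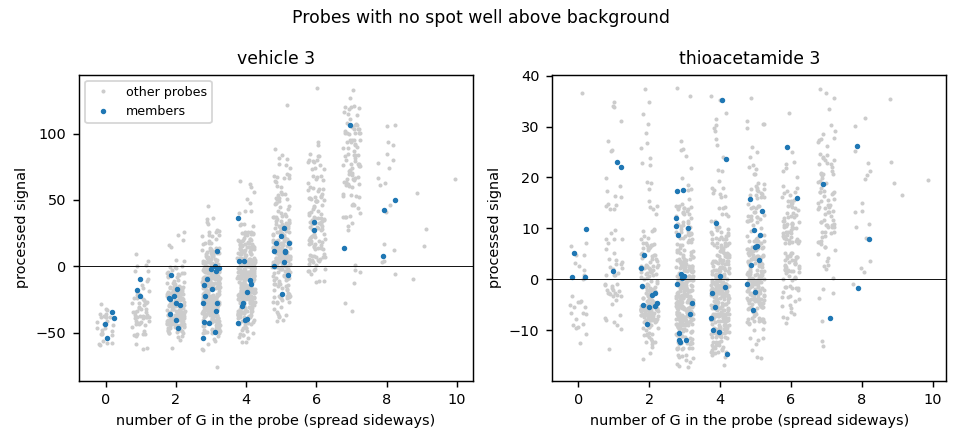
Processed signal (vertical axis, linear) against the number of G in the probe (horizontal axis, points spread sideways), for probes with no spot well above background, on vehicle 3 and thioacetamide 3. Blue points are the 62 member probes and grey points the 1380 other probes; signals climb with G on vehicle 3 (correlation 0.71 over member probes) and hardly on thioacetamide 3 (0.18).

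Each thioacetamide array was also set against the vehicle arrays of its own side, a description chosen after seeing the data. A line was fitted over the 1380 other probes with no spot well above background, thioacetamide 1 on the mean of vehicle 2 and 3 (slope 2.63), and thioacetamide 2 and 3 each on vehicle 1 (slopes 1.42 and 2.21). Distances from the line are in SD of those probes. miR-200a, miR-200b and miR-429 were the only 3 of the 31 miRNAs with a probe past the 99th percentile of these distances on all 3 thioacetamide arrays, beside 35 of 677 (5.17%). All 35 were among the 99 detected miRNAs (35.4% of those). The line rests on probes chosen for having no bright spot, so detection on thioacetamide 2 and 3 and distance from the line are not separate measures.

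The brighter miR-200a probe lay 5.20, 9.19 and 7.70 SD above the line on thioacetamide 1 to 3. For miR-200b the distances were 4.28, 12.9 and 13.7 SD, and for miR-429 they were 3.02, 10.3 and 9.95 SD. These 3 probes were past the 99th percentile on thioacetamide 1 too, where none of the 3 miRNAs was detected. The other probes were closer to the line: that of miR-200b lay at 1.84, 1.90 and 1.83 SD and passed on no array, that of miR-200a at 2.87, 2.97 and 2.11 SD and passed on thioacetamide 1 alone, and that of miR-429 at 1.88, 4.54 and 3.59 SD and passed on thioacetamide 2 and 3. By contrast, the miR-204 probe lay at -1.37, 0.636 and 0.217 SD, and the probes of miR-200c and miR-141 between -1.06 and 1.31 SD. Of the rest, only miR-183 passed on any array, at 3.90 SD on thioacetamide 3. Thioacetamide 2 and 3 share 1 vehicle array, so they are not independent of each other here.

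**Figure D4:**
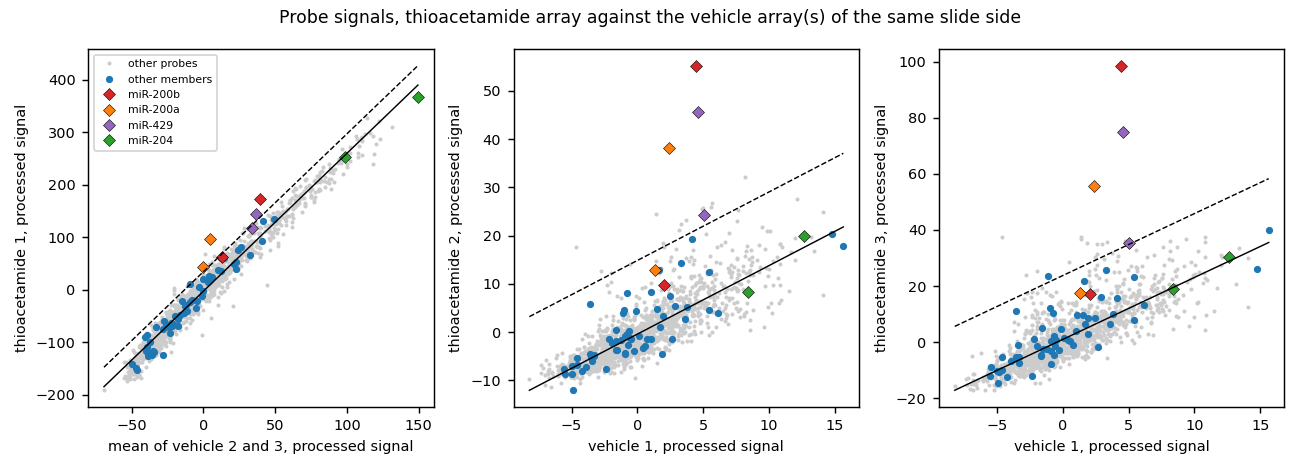
Probe signals on each thioacetamide array (vertical axis) against the vehicle array or arrays of the same slide side (horizontal axis), both as processed signal, linear. The solid line is fitted to the other probes (grey, no spot well above background) and the dashed line is the 99th percentile of distance from it; a probe of miR-200b, miR-200a and miR-429 lies above the dashed line in all 3 panels and miR-204 lies near the solid line.

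Other miRNAs of the same organs, mostly partner arms and family members, were detected in small numbers: 2 of 6 for muscle and heart, 1 of 18 for brain, 0 of 3 for pancreas and 1 of 16 for epithelium (miR-211). miR-208*, the partner arm of miR-208, had signals of 215, 641 and 298 on vehicle 1 to 3 and 264, 437 and 951 on thioacetamide 1 to 3. It was detected on all arrays but thioacetamide 1, with overlapping groups (log2 difference -0.29, limma adjusted p = 0.823), while miR-208 itself was below 0 on every array. miR-378, known from muscle and brown fat, and miR-134, known from neuronal dendrites, were each detected on thioacetamide 2 and 3 alone, and neither passed (log2 difference 1.57, limma adjusted p = 0.228, and 1.04, adjusted p = 0.234). On the same scale, 4 of 6 fitted liver miRNAs passed as higher, with miR-122 at 8.10 (limma, adjusted p = 0.00171), and 3 of 11 fitted blood cell miRNAs as lower, with miR-451 at -1.31 (limma, adjusted p = 0.00938). The lower calls depend on the scaling: 0 miRNAs passed as lower without scaling or with spike-in scaling. Unscaled, miR-451 was at 8265, 6428 and 4257 on vehicle 1 to 3. On thioacetamide 1 to 3 it was at 8665, 2317 and 3544, so the groups overlapped.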

How the data were processed

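The submitters' processing notes name Agilent Feature Extraction, version 10.7.3.1, for the spot files of the 6 arrays. The intensity values that the authors deposited are background-subtracted and linear, neither scaled between arrays nor logged; other deposited columns are the software's calls per spot, with a multiple of 13 for the well-above-background call per the file headers. The deposited matrix matched them to within 0.005. Control spots and 2126 outlier-marked spots were left out, and none was saturated. Means of unmarked spots per probe were summed per miRNA. Coordinates are those of the files (rn4). The fit (limma 3.58.1 under R 4.3.3, with 4 residual and 0.883 prior degrees of freedom) had treatment as its only term, with Benjamini-Hochberg adjustment. It was tested on simulated data with normal noise, the same SD for every miRNA and no floor. Such data hold no values tied at the floor, so that test cannot assess calls like that of miR-200a. Arrays carry separate body weights and were treated as separate animals, whose number limits the precision. The labels do not say whether replicate numbers pair animals, and the fit did not pair them. Same-numbered deviations correlated at -0.71, -0.30 and -0.67. Same-numbered arrays lay on opposite slide sides, so these values cannot tell whether animals were paired. Members detected by either call are given on every array, others by range. Members and lists were chosen with earlier results of these data known.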

Additional observations from a re-analysis of the deposited data

How the results depend on the processing

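The 4 members detected became 2 when every spot had to be well above background, and 3 to 4 without 1 array. The count of members passing as higher, 1, became 0 with a filter of at least 3 arrays (which left no member to fit), no filter, no scaling, the 75th percentile over all probes, quantile normalization, normexp, the software's total gene signal, a floor 4 times as high, the slide side or the replicate block, columns 3 and 4 alone, and 0 to 0 without 1 array; where every spot had to be well above background the 1 was miR-200b (log2 difference 1.31, limma adjusted p = 0.0292). No member passed as lower in any setting. Counts of all miRNAs passing limma, 14 higher and 5 lower, were 29 and 0 with every spot, 9 and 1 with at least 3 arrays, 2 and 0 without a filter, 25 and 0 without scaling, 27 and 0 after spike-in scaling, 0 and 0 where the percentile was over all probes (at an unadjusted p under 0.05, limma gave 8 higher and 0 lower), 7 and 2 with quantile normalization, 5 and 1 with normexp, 6 and 3 with the higher floor, 8 and 2 with the side block, 9 and 1 in columns 1 and 2, and 9 and 2 in columns 3 and 4. They were 12 and 2 with the gene call and with 1 spot, 11 and 2 with the total gene signal, 10 and 0 with the lower floor and 10 and 1 with the replicate block. Without 1 array, 6 to 23 were higher and 0 to 7 lower. The causes were not tested.

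Differences that changed sign were, with normexp, -0.16 for miR-200a, -0.15 for miR-200b and -0.17 for miR-429; without vehicle 1, -0.048 for miR-429; and without thioacetamide 1, -0.063 for miR-200b and -0.32 for miR-429. Without 1 array, miR-200b ranged from -0.063 to 0.64 and miR-429 from -0.32 to 0.43. The scaling sets where 0 lies: the median of the fitted miRNAs was 0.36, against 0.79 without scaling, 1.00 with spike-ins and -0.14 with normexp. The detection limit differed up to 22.7-fold between arrays, so an undetected member on thioacetamide 1 or vehicle 2 and 3 could carry a signal that would be detected on vehicle 1. Whether undetected members are absent from plasma cannot be told from these arrays.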

Other observations

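Undetected members differed in where they were brightest relative to the detection limit. Some, such as miR-133b, were brightest on vehicle 1. Others, among them miR-138, miR-182, miR-183, miR-196a, miR-206 and miR-375, were brightest on thioacetamide 2 and 3, though under the limit on every array. The brightest probe of miR-138, a brain miRNA, was at 19.3% and 26.0% of the lowest detected probe on these arrays and below 0 on the other 4. For miR-182 the values were 45.7% and 34.0%, against 15.0% to 21.1% elsewhere. These arrays also detected the most miRNAs (69 and 83), and 15 of the 677 miRNAs, miR-200b and miR-429 among them, were detected on both and on no other array.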
